A study of Mus musculus with 2 samples.

Results

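Retnlg-high neutrophils are cell barcodes with the transcripts of a neutrophil in which Retnlg takes a large part of the RNA. They were chosen from 9255 barcodes with at least 200 detected genes in 2 single-cell RNA libraries. A barcode had to hold at least 20 unique molecular identifiers (UMIs, counted molecules) of S100a8 and S100a9 together and at least 2 of Csf3r, Cxcr2 and Il1r2 together. It could hold at most 3 UMIs of C1qa and C1qb and at most 1 of Cd3d, Cd3e and Cd3g, and Retnlg had to make up at least 0.2% of its UMIs. In all, 302 barcodes met the rule, 253 of 5765 in the E2 library and 49 of 3490 in the placebo library. Another 256 E2 and 168 placebo barcodes passed every step except Retnlg and are called Retnlg-low neutrophils here. The values of Retnlg, S100a8, S100a9, the 3 receptors, C1q and Cd3 chose the members, so they are given only as a description.

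The libraries hold live CD45+ immune cells sorted from tumours of ovariectomised C57BL6\J mice, from which the ovaries had been removed. One group received E2 (estradiol) and the other placebo, and both shared the ovariectomy and the sort. Each group is 1 library of the 10x 3′ kind, so no difference below has a replicate check, and effects of the hormone, the animals and the library cannot be told apart. The sources used here name no tumour type, no dose or duration, and no number of mice per library.

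Neutrophils are short-lived granulocytes made in the bone marrow under G-CSF, whose receptor is encoded by Csf3r. They follow chemokines through Cxcr2, carry proteases and antimicrobial proteins in granules, and store the S100a8 and S100a9 proteins (calprotectin) in the cytoplasm. Retnlg encodes resistin-like gamma, a small secreted protein of the resistin family, and Ly6g encodes the surface protein by which mouse neutrophils are usually recognised. In tumours, neutrophils can release interleukin-1, chemokines and angiogenic factors.

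The E2 library had 5791 barcodes with 52628133 UMIs, and the placebo library 3505 barcodes with 24545595 UMIs. Among members the median depth was 3750 UMIs in E2 and 2823 in placebo, with 1036 and 884 genes as the medians. Their UMIs summed to 1050670 in E2 and 140903 in placebo, so 3 UMIs amount to 2.86 CPM (counts scaled to a total of 1000000) in E2 and 21.3 CPM in placebo. The libraries shared 95 barcode sequences, but no member barcode occurred in both. A doublet caller marked 5 of the 253 E2 members and none of the 49 placebo members. Members above 10000 UMIs numbered 3 in E2 and 0 in placebo, all 3 were marked as doublets, and results that rest on them are given with and without them.

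Of the label's 5 markers, Retnlg, S100a8, S100a9 and Csf3r were used by the rule, so their detection is no check of the label. Ly6g, which the rule did not use, was found in 98 of 253 E2 and 3 of 49 placebo members. Another 8 neutrophil genes outside the rule were all detected in members of both libraries, and summed to 19578 CPM in E2 and 20425 CPM in placebo, against 134 and 58.3 CPM in the T-cell barcodes of those libraries. Of the other cell types, T-cell markers reached 19.0 CPM in E2 and 35.5 CPM in placebo, monocyte markers 366 and 192 CPM, and macrophage markers 285 and 255 CPM. The rule capped the T-cell markers Cd3d, Cd3e and Cd3g and the macrophage markers C1qa and C1qb. The T-cell and macrophage sums are thus low in part by choice, and are no full check of the label. Markers of dendritic cells summed to 1078 CPM in E2 and 206 CPM in placebo, with 71.6% of the E2 UMIs in 1 barcode. NK-cell markers were at 135 CPM in E2, in 3 barcodes, and at 0 in placebo. The 6 eosinophil markers summed to 7.61 CPM in E2 (8 UMIs) and 21.3 CPM in placebo (3 UMIs). Among them, Epx, Prg2 and Il5ra were at 0 in members of both libraries, and also in Retnlg-low neutrophils and T-cell barcodes.

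Retnlg-high neutrophils made up a larger share of the E2 library than of the placebo library. They were 4.39% of barcodes in E2 (exact binomial 95% interval 3.87 to 4.95) and 1.40% in placebo (1.04 to 1.85), a ratio of 3.13 (2.29 to 4.34). These intervals, like all below, cover counting error only. Retnlg-low neutrophils were 4.44% of barcodes in E2 and 4.81% in placebo, a ratio of 0.922 (0.756 to 1.13). Within the neutrophil gate, Retnlg-high barcodes were 49.7% in E2 (45.3 to 54.1) and 22.6% in placebo (17.2 to 28.7), a ratio of 2.20 (1.62 to 3.05). The gate as a whole held 8.83% of E2 and 6.22% of placebo barcodes. All shares are of CD45+ sorted barcodes, whose median depth was 8108 UMIs in E2 and 5158.5 in placebo. With barcodes thinned to 1000 UMIs, the rule was applied with lower minima for the S100 and receptor UMIs, and barcodes under 1000 UMIs were left out. This gave 263 members of 5527 barcodes in E2 and 57 of 3243 in placebo. The ratios were then 2.71 for the share of barcodes and 1.99 for the share of the gate. A threshold of 0.5% Retnlg left 192 E2 and 22 placebo members and gave ratios of 5.28 and 3.72.

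Retnlg lies on chromosome 16, 48872621 to 48874496, plus strand (mm10). Among members it took a median of 0.913% of UMIs in E2 and 0.443% in placebo. The interquartile range ran from 0.513 to 1.78% in E2 and from 0.275 to 0.926% in placebo, with highest values of 6.31 and 4.06%. Barcodes at 1% Retnlg or more were 117 of the 253 E2 members (46.2%, 40.0 to 52.6) and 11 of the 49 placebo members (22.4%, 11.8 to 36.6). The lowest member was at 0.203% in E2 and 0.202% in placebo, and the highest Retnlg-low barcode was at 0.195% in both libraries. From 0.2 to under 0.3% lay 27 E2 and 16 placebo members, and from 0.1 to under 0.2% lay 34 E2 and 23 placebo Retnlg-low barcodes. Retnlg stood at 38.9 CPM in E2 T-cell barcodes and at 1.57 CPM in placebo T-cell barcodes, which is 0.00389% and 0.000157% of their UMIs, against the 0.2% that the rule asks for. Of barcodes outside the gate, 14 in E2 and 8 in placebo held 0.2% Retnlg or more.

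**Figure D1:**
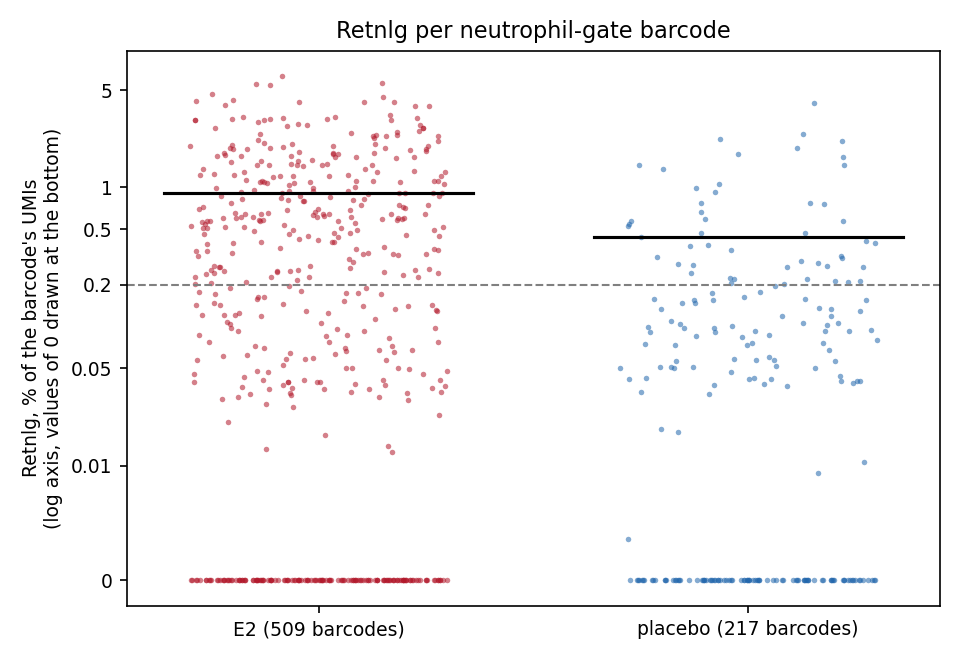
Retnlg as a percent of UMIs in each barcode of the neutrophil gate (vertical axis), 1 point per barcode in the E2 and the placebo library on a log axis, with a dashed line at the 0.2% threshold and solid lines at the members' medians of 0.913% and 0.443%. Of the gate, 49.7% of E2 and 22.6% of placebo barcodes lie at or above the threshold.

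The members' most abundant transcripts included genes of calprotectin, a chemokine and a cytokine, beside transcripts that most cells carry. S100a9 and S100a8, which the rule used, stood at 100793 and 90696 CPM in E2 and at 89672 and 73072 CPM in placebo. Cxcl2, the chemokine ligand of Cxcr2, had 29131 CPM in E2 and 32058 CPM in placebo. Il1b, which encodes the cytokine interleukin-1 beta, had 18723 CPM in E2 and 18807 CPM in placebo, a ratio of 0.996 (0.956 to 1.04). Every member held an Il1b UMI, with a median of 72 per barcode in E2 and 50 in placebo. Fth1, the heavy chain of the iron store ferritin, had 21752 CPM in E2 and 18325 CPM in placebo. Cd14, a coreceptor for bacterial lipopolysaccharide, had 6111 CPM in E2 and 6572 CPM in placebo. Of the general transcripts, Tmsb4x, which encodes an actin-binding peptide, had 17422 CPM in E2 and 17459 CPM in placebo, Malat1, a nuclear noncoding RNA, 16679.8 and 16004 CPM, and Actb, which encodes actin, 12095 and 14336 CPM.

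Chemokine genes were among the transcripts that varied most between members relative to their mean. With each barcode thinned to 1000 UMIs (252 E2 and 48 placebo members deep enough), the ratio of variance to mean had a median of 1.13 in E2 and 1.16 in placebo over 881 genes. For Cxcl2 it was 23.3 in E2 and 40.9 in placebo, and for Ccl4, which encodes a chemokine that draws monocytes and lymphocytes, it was 28.5 and 19.1. Ccl4 was absent from 81.7% of thinned E2 members and 62.5% of thinned placebo members, and the 26 E2 barcodes with the most held 93.4% of its E2 UMIs, and the 5 such placebo barcodes 58.3% of its placebo UMIs. Spp1, which encodes osteopontin, was absent from 94.4% of thinned E2 members and 81.2% of thinned placebo members. Il1b was spread more evenly, with ratios of 4.98 in E2 and 4.72 in placebo, and the same numbers of top barcodes held 19.98% of its UMIs in E2 and 19.2% in placebo.

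Retnlg-high and Retnlg-low neutrophils were compared within each library to describe what accompanies Retnlg. Retnlg was left out of the totals, and since the rule split the classes by Retnlg these values are a description with no test. A log2 ratio here compares CPM plus 10, which understates the change of low genes. The 2276 genes compared had, in each library, at least 50 CPM in either class and at least 30 UMIs over both classes. Of these genes, 87 were at least 1.5-fold higher in Retnlg-high neutrophils of both libraries, or 3.82%, and 534 at least 1.5-fold lower in both, or 23.5%. In E2 alone 187 were higher (8.22%) and 768 lower (33.7%), and in placebo alone 256 higher (11.2%) and 808 lower (35.5%). The median log2 ratio over these genes was -0.31 in E2 and -0.22 in placebo. Of Retnlg-low barcodes, 12 of 256 in E2 and 5 of 168 in placebo were above 10000 UMIs. Without gate barcodes above 10000 UMIs the counts were 55 higher and 288 lower.

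Several genes of neutrophil granules and small secreted proteins were on the higher side. Mmp8, the neutrophil collagenase stored in granules (chromosome 9, 7558456 to 7568485, plus strand, mm10), had 331 CPM in Retnlg-high and 70.0 CPM in Retnlg-low neutrophils of E2. In placebo it had 511 CPM in Retnlg-high and 64.1 CPM in Retnlg-low neutrophils. Without Retnlg in the totals these are ratios of 4.80 (3.66 to 6.38) in E2 and 8.04 (5.28 to 12.5) in placebo. Wfdc21, a small secreted protein of the WAP family, had log2 ratios of 1.81 in E2 and 1.44 in placebo. Lcn2, which encodes the iron-siderophore binder lipocalin 2, had log2 ratios of 1.19 and 1.51, and Pglyrp1, a peptidoglycan-binding granule protein, of 1.01 and 1.31. Adam8, a membrane metalloprotease, was at 1.33 in E2 and 0.98 in placebo, and the chemokine gene Ccl6 at 1.44 and 1.03. Of 9 measured tertiary and secretory granule genes, 5 were at least 1.5-fold higher in both libraries, with medians of 0.95 in E2 and 0.99 in placebo. Of 9 S100 and small secreted genes 5 were higher in both and 2 lower, with medians of 0.92 and 0.65. Of 3 measured secondary granule genes, 2 were higher in both and 1 lower in both. Summed over that list, the level in E2 was 4065 CPM in Retnlg-high and 4845 CPM in Retnlg-low neutrophils, and in placebo 2647 and 1323 CPM. The E2 Retnlg-low sum was uneven, at 15650 CPM in 44 barcodes above 0 and under 0.05% Retnlg. It was 1374 CPM with no Retnlg UMI and 2316 CPM from 0.05 to under 0.2%. One E2 Retnlg-low barcode held 86.9% of the UMIs of the immature neutrophil markers, which share Ltf, Camp and Ngp with this list. The stefin A genes Stfa1, Stfa2, Stfa2l1 and BC100530 are near-identical copies whose counts could be split or shared, and so is Mrgpra2b with its neighbour.

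Ly6g was not used by the rule and also accompanied Retnlg. It lies on chromosome 15, 75155240 to 75159126, plus strand (mm10). Ly6g had 251 CPM in Retnlg-high and 35.5 CPM in Retnlg-low neutrophils of E2, a ratio of 7.17 (4.95 to 10.7). In placebo it had 35.5 CPM in Retnlg-high and 9.42 CPM in Retnlg-low neutrophils, a ratio of 3.80 whose interval of 0.874 to 16.5 includes 1.

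The promoters of Retnlg and of 3 genes that the results turn on are shown as the 250 bases before the listed transcription start, from RefSeq on GRCm38.p6, which is the mm10 assembly. Capitals mark matches on either strand to the C/EBP-type letters TTGCNNAA and to the PU.1-type letters GAGGAA, which do not overlap here. C/EBP and PU.1 factors are known to drive granulocyte genes. For Ly6g the first of its listed starts was taken. Retnlg is at chr16:48872358-48872607, Mmp8 at chr9:7558179-7558428 and Ly6g at chr15:75155011-75155260, all on the plus strand, and Prok2 is at chr6:99726393-99726642 on the minus strand.
Retnlg: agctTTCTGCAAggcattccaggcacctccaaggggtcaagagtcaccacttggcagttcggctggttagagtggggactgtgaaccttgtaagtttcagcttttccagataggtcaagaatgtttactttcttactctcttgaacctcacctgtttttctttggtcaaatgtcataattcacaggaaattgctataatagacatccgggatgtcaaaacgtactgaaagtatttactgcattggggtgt
Mmp8: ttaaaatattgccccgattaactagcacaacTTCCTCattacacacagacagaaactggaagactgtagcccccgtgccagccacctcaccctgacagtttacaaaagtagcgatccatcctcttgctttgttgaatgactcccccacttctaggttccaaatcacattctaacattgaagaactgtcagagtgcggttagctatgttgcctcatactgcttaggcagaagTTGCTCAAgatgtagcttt
Ly6g: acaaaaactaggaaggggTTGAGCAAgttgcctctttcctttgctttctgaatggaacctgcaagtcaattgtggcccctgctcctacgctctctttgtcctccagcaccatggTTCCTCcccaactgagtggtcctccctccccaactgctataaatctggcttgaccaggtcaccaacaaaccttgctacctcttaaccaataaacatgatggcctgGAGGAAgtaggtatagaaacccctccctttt
Prok2: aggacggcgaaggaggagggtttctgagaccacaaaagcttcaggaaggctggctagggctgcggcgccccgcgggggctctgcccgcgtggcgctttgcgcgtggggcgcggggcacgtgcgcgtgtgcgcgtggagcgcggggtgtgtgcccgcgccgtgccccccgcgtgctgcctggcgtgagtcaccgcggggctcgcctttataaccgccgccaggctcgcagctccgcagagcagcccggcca
Retnlg holds 1 C/EBP-type match and no PU.1-type match, Mmp8 holds 1 of each, Ly6g holds 1 C/EBP-type and 2 PU.1-type matches, and Prok2 holds neither. Of 32851 RefSeq promoters of the same length, 9.56% hold the C/EBP-type letters and 23.3% the PU.1-type letters. A match describes these letters only, and no match says only that they are not in this window.

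The lower side held genes that monocytes express. Chil3, a chitinase-like protein of myeloid cells, had 9.52 CPM in Retnlg-high and 474 CPM in Retnlg-low neutrophils of E2, and 0 and 86.7 CPM in placebo. It is outside the monocyte marker list and among the immature neutrophil markers, of which the top E2 Retnlg-low barcode held 86.9% of UMIs. In E2, Chil3 was at 480 CPM with no Retnlg UMI and 592 CPM above 0 and under 0.05% Retnlg. From 0.05 to under 0.2% Retnlg it was at 367 CPM. Fn1, which encodes fibronectin, had 9.52 and 179.9 CPM in E2, and 0 and 162 CPM in placebo. Ccr2, the chemokine receptor of classical monocytes, had 19.0 and 144 CPM in E2, and 0 and 128 CPM in placebo. The summed monocyte marker list was at 366 CPM in Retnlg-high and 1308 CPM in Retnlg-low neutrophils of E2, and at 192 and 1187 CPM in placebo. Few barcodes carried much of it, since 3 of the 256 Retnlg-low barcodes held 28.0% of these UMIs in E2, and 3 of the 168 held 59.7% in placebo. The part of monocyte RNA in these differences was not tested.

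Cxcr4, the receptor that holds neutrophils in marrow and marks aged ones, had 231 CPM in Retnlg-high and 595 CPM in Retnlg-low neutrophils of E2, and 284 and 699 CPM in placebo. Csf1, the macrophage growth factor, had 67.6 and 313 CPM in E2, and 49.7 and 513 CPM in placebo. Both genes were lower in Retnlg-high neutrophils of each library. Genes of oxidative phosphorylation, the mitochondrial respiratory chain, were lower as a list, with medians of -1.02 in E2 and -1.29 in placebo and 30 of 36 measured members at least 1.5-fold lower in both. Their sum was 9779 CPM in E2 and 8714 CPM in placebo with no Retnlg UMI, and 9686 and 9215 CPM under 0.05%. From 0.05 to under 0.2% Retnlg it was 6063 and 4077 CPM, and from 0.2 to under 0.5% 4007 and 3190 CPM. The list was not recomputed without barcodes above 10000 UMIs. Type I interferon response genes had medians of 0.97 in E2 and 0.41 in placebo, but 2 of the 12 measured were 1.5-fold higher in both.

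**Figure D2:**
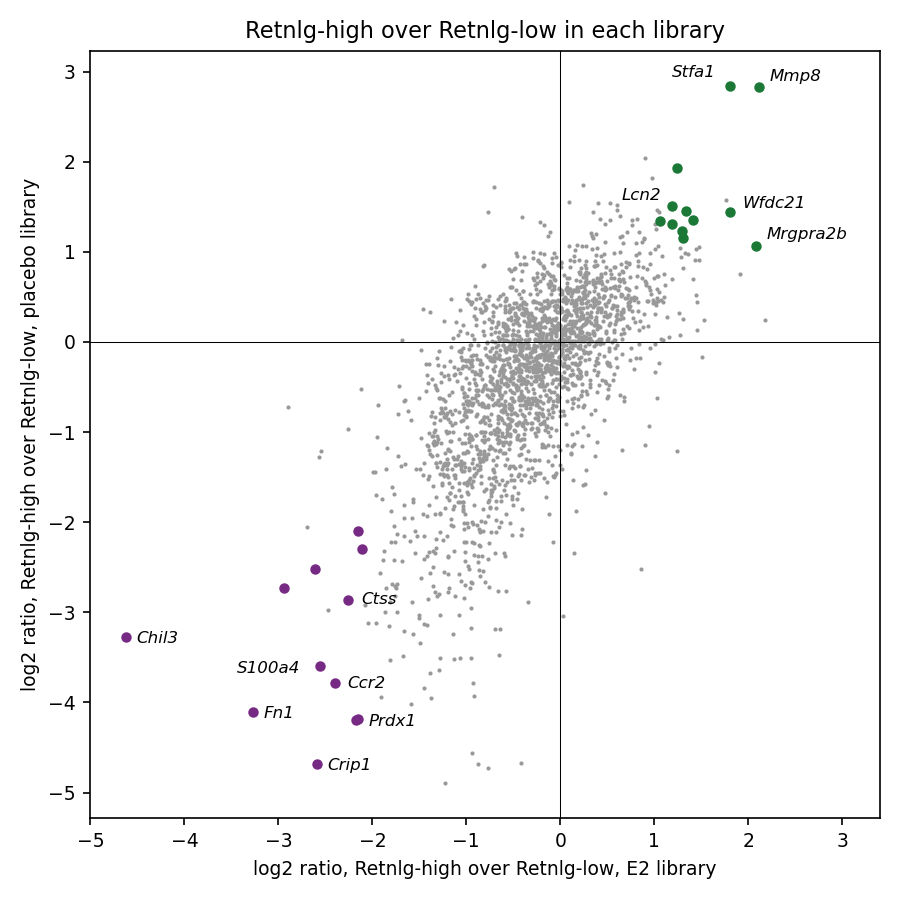
Log2 ratio of Retnlg-high over Retnlg-low neutrophils for each of 2276 genes, in E2 (horizontal) and in placebo (vertical), with CPM plus 10 and Retnlg left out of the totals. Mmp8 stands at 2.11 in E2 and 2.83 in placebo, Chil3 at -4.62 and -3.27, and 87 genes are at least 1.5-fold higher in both libraries.

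Along the range of Retnlg the accompanying genes changed across the bins, on both sides of the threshold. In E2, gate barcodes fell into 6 bins of 145, 44, 67, 61, 75 and 117 barcodes, from no Retnlg UMI through 0.05, 0.2, 0.5 and 1% to 1% and above. Ly6g was at 11.1, 54.3, 64.5, 136, 147 and 380.1 CPM in these bins, higher in each bin than in the one before. Cxcr4 ran the other way, at 769.5, 439, 407, 305, 299.6 and 159 CPM. Prok2 was at 26.7, 9.87, 16.1, 53.3, 85.2 and 290.2 CPM, lower in the next 2 bins than with no Retnlg UMI. G0s2, an inhibitor of triglyceride breakdown, went through 2716, 2883, 4857, 6987, 7294 and 9316 CPM. In placebo the first 4 bins held 92, 21, 55 and 27 barcodes and the last 2 held 11 each, which are too few to read. There Cxcr4 was at 973, 413, 433 and 264 CPM and Ly6g at 7.51, 0, 20.9 and 41.6 CPM. Ccl4 followed no such order in either library, and was between 5301 and 9544 CPM in those placebo bins and between 1157 and 2587 CPM in the E2 bins.

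**Figure D3:**
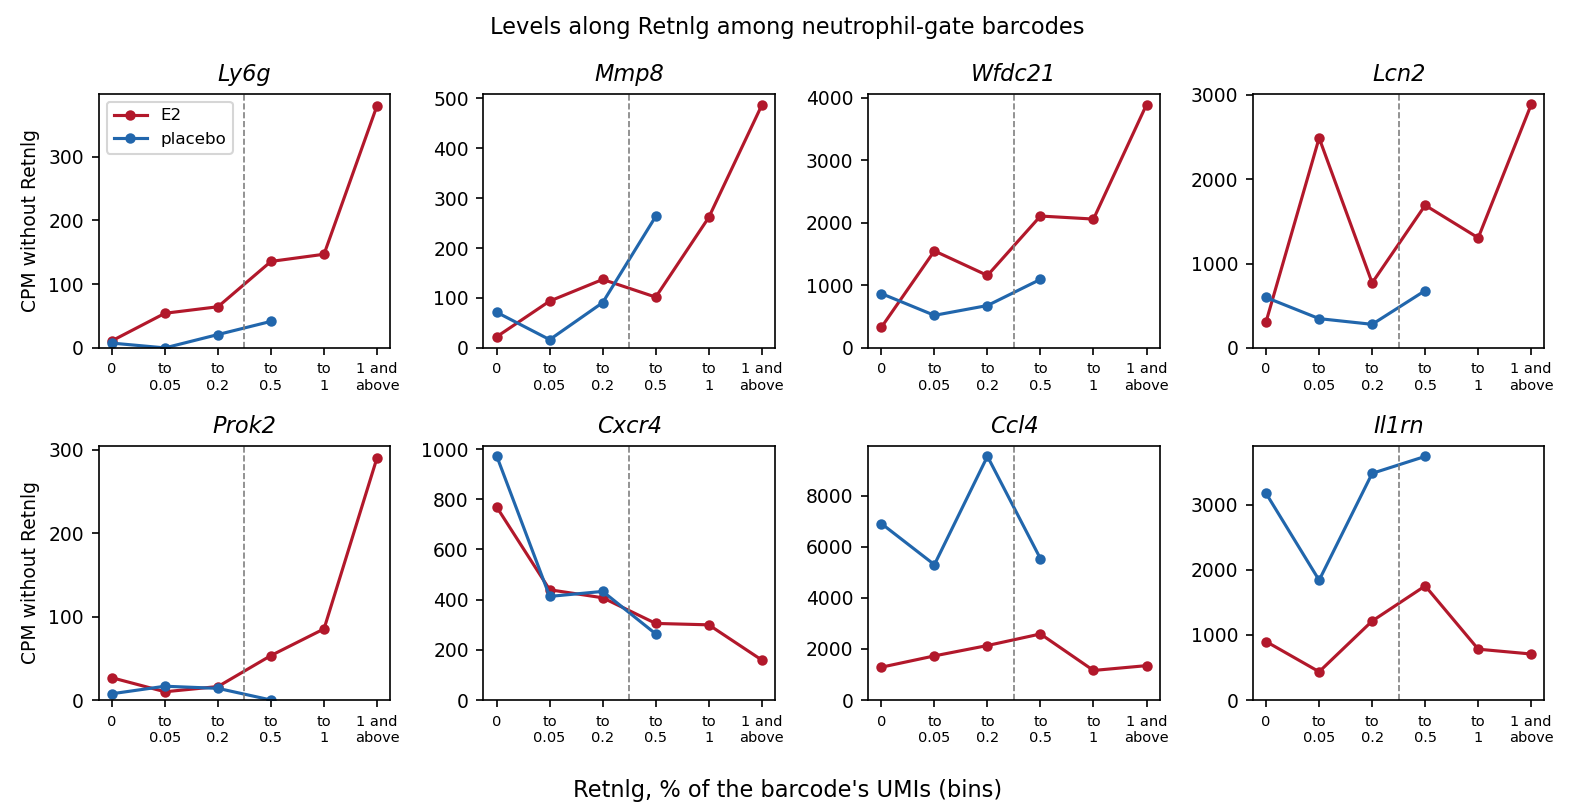
Level (CPM without Retnlg in the totals) of selected genes in neutrophil-gate barcodes binned by Retnlg percent of UMIs, for E2 and placebo, leaving out bins under 20 barcodes. In E2, Ly6g is at 11.1 CPM in the lowest bin and 380.1 CPM in the highest, and Cxcr4 is at 769.5 CPM in the lowest and 159 CPM in the highest.

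The comparison of E2 with placebo members asks how the same class of neutrophil differed between hormone states. Of 2136 genes with at least 50 CPM and 30 UMIs, 314 (14.7%) were at least 1.5-fold higher in E2 and 456 (21.3%) at least 1.5-fold lower. With totals that leave out S100a8, S100a9 and Retnlg, the split was 452 higher and 439 lower, and centred on the median of these genes, which was -0.13, it was 414 and 332. With an interval that also lies off 1, the counts were 180 higher (8.43%) and 300 lower (14%). Without the 3 E2 members above 10000 UMIs they were 242 higher and 445 lower at 1.5-fold. The 49 placebo members set the precision of all these ratios. Since E2 members also held more Retnlg, the ratios were recomputed with the Retnlg bins given the same weights in both libraries. Ly6g then had a log2 ratio of 2.38 in place of 2.52, Hif1a 1.61 in place of 1.61, Ccl4 -1.91 in place of -2.05 and Il1rn -1.01 in place of -1.47. In placebo the bins from 0.5 to 1% and from 1% hold 11 members each, too few to read alone. The weights raise the part of these bins, so the recomputed ratios lean on few placebo barcodes.

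Ly6g was higher in E2 members. It had 251 CPM in E2 and 35.5 CPM in placebo, a ratio of 7.08 (2.996 to 22.0). A Ly6g UMI was found in 98 of 253 E2 members and 3 of 49 placebo members, with at most 19 and 3 UMIs in a barcode. At 1000 UMIs per barcode it was in 18.7% of E2 members (14.0 to 24.0) and 6.25% of placebo members (1.31 to 17.2), against 0.109 and 0% of T-cell barcodes. The intervals of these shares overlap. In Retnlg-low neutrophils Ly6g was at 35.5 CPM in E2 and 9.42 CPM in placebo.

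Prok2, which encodes the secreted chemoattractant prokineticin 2, lies on chromosome 6, 99711299 to 99726392, minus strand. It had 182 UMIs in 45 of 253 E2 members and none in the 49 placebo members, which by 3 counts of 49 allows up to 6.12% of barcodes with a UMI at their depth. Against a floor of 3 UMIs over all placebo members, Prok2 was at least 8.14-fold higher in E2. Thinned to 1000 UMIs it was in 9.13% of E2 members (5.87 to 13.4), 0% of the 48 placebo members and 0% of T-cell barcodes of both libraries. In Retnlg-low neutrophils Prok2 was at 19.99 CPM in E2 and 11.3 CPM in placebo. Cxcr1, a receptor for CXC chemokines, had 62 UMIs in 39 E2 members and none in placebo, at least 2.77-fold higher. Mif, a secreted cytokine that cells of many types make, had 244 CPM in E2 and 28.4 CPM in placebo, a ratio of 8.58 (3.31 to 31.7). Trafd1, a brake on Toll-like receptor signals, had 86 UMIs in E2 and 1 in placebo, a ratio of 11.5 with an interval from 2.02 to 461.

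Among granule and small secreted genes the direction was mixed. Wfdc17, another WAP-family protein, had 6476 CPM in E2 and 3470.5 CPM in placebo, a ratio of 1.87 (1.70 to 2.05). It was likewise at 3263 CPM in E2 and 1713 CPM in placebo among Retnlg-low neutrophils. Lgals3, which encodes the sugar-binding protein galectin-3, had 907 CPM in E2 and 376 CPM in placebo, a ratio of 2.41 (1.83 to 3.24). Lcn2 had 2099 CPM in E2 and 1299 CPM in placebo, a ratio of 1.62 (1.39 to 1.89), but its log2 ratio was 0.17 at a Retnlg threshold of 0.5%. Mmp8 went the other way, with 331 CPM in E2 and 511 CPM in placebo. Adam8 had 1003 CPM in E2 and 1554 CPM in placebo, and Mmp9, the gelatinase of tertiary granules, 1421 and 1803 CPM. Of 9 S100 and small secreted genes, 7 were higher in E2 and 2 lower, with a median log2 ratio of 0.48 and 3 past 1.5-fold. Of 11 tertiary and secretory granule genes, 4 were higher and 7 lower, and their median was -0.03, or -0.54 at the 0.5% threshold. The background for these lists is 3801 genes with at least 20 UMIs, whose median was 0.015, with 50.9% higher at all, 21.8% at least 1.5-fold higher and 16.5% at least 1.5-fold lower. The 5 secondary granule genes with that many UMIs had a median of 0.69, which was 0.17 at the 0.5% threshold. Ltf and Camp, the lactoferrin and cathelicidin genes of immature neutrophils, were under 20 UMIs.

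**Figure D4:**
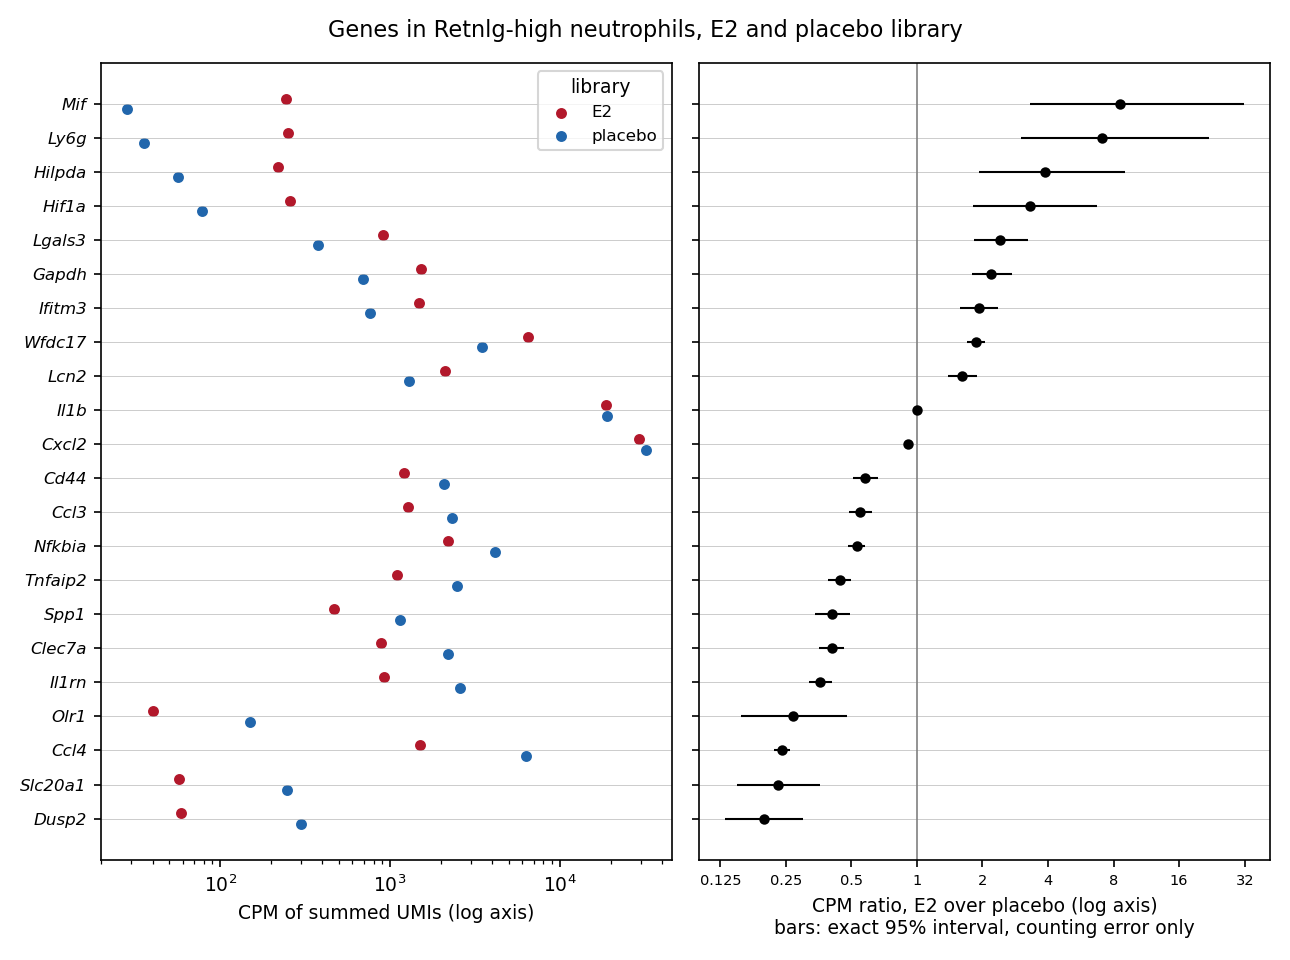
Named genes in Retnlg-high neutrophils, with the CPM of each library on a log axis at left and the ratio of E2 over placebo on a log axis at right, with exact 95% counting intervals and a line at 1. Ly6g is at 7.08 with an interval from 2.996 to 22.0, and Il1b is at 0.996.

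Cytokine and chemokine genes were more often lower than higher in E2, 14 against 3 of 17. Ccl4 (chromosome 11, 83662584 to 83664683, plus strand) had 1510.5 CPM in E2 and 6281 CPM in placebo, which is 4.16-fold lower in E2 (3.83 to 4.52). It was found in 67 of 253 E2 and 23 of 49 placebo members, and at 1000 UMIs in 18.3% (13.7 to 23.6) and 37.5% (24.0 to 52.6), against 3.06 and 3.51% of T-cell barcodes. Retnlg-low neutrophils also had less Ccl4 in E2, with 1618 CPM in E2 and 7252 CPM in placebo. Ccl3, its neighbour and close relative, had 1276 CPM in E2 and 2328 CPM in placebo. Il1rn, the natural antagonist of the interleukin-1 receptor, had 927 CPM in E2 and 2583 CPM in placebo, 2.79-fold lower (2.46 to 3.15). Osm, which encodes oncostatin M, had 801 CPM in E2 and 1270.4 CPM in placebo. Cxcl2 and Cxcl3 were close to level, with log2 ratios of -0.14 and -0.02, and Cxcl2 was at 0.21 at the 0.5% threshold. Of the list, 2 genes were past 1.5-fold higher and 7 past 1.5-fold lower, with a median of -0.14. The higher pair was Vegfa, the angiogenic growth factor, and Cxcl1, a relative of Cxcl2 with 32.4 CPM in E2 and no UMI in placebo. That median was 0.18 at the 0.5% threshold, so the direction of this list rests on where the members begin. Spp1 had 466 CPM in E2 and 1143 CPM in placebo, in 24 and 10 members.

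Targets of NF-kB, the transcription factor of inflammatory signals, had the lowest median of the lists with at least 5 measured genes at the 0.2% threshold. Of 24 targets, 3 were higher and 21 lower in E2, 1 and 13 of them past 1.5-fold, with a median of -0.74, and of -0.51 in Retnlg-low neutrophils. At the 0.5% threshold the median was -0.56, and that of the prostaglandin and leukotriene enzymes was -0.58. Thinned to 1000 UMIs it was -0.44. Nfkbia, the inhibitor that NF-kB itself induces, had 2202 CPM in E2 and 4166 CPM in placebo. Tnfaip3, an enzyme that ends the signal, had 493 CPM in E2 and 1107 CPM in placebo, and Tnfaip2 had 1099 and 2484 CPM. Nfkb1, which encodes a subunit, had 115 CPM in E2 and 277 CPM in placebo. Il1b and Cxcl2, both members of the list and its most abundant genes, were close to level at -0.01 and -0.14. Of 27 immediate-early and stress genes, 22 were lower and 5 higher, and the median was -0.33, while the same list was at 0.10 in Retnlg-low neutrophils. From that list, Dusp2, a phosphatase of MAP kinases, had 59.0 CPM in E2 and 298 CPM in placebo, 5.05-fold lower (3.33 to 7.59). Such genes also respond to tissue handling, and its part in the difference was not tested. Outside both lists, Slc20a1, a phosphate transporter, was among the lowest ratios of all genes at 57.1 CPM in E2 and 248 CPM in placebo, with a log2 ratio of -1.95, and of -0.96 at the 0.5% threshold.

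Receptors tended to be lower in E2 members. Clec7a, which encodes the fungal glucan receptor Dectin-1, had 888 CPM in E2 and 2186 CPM in placebo, 2.46-fold lower (2.16 to 2.80). Clec4d, a C-type lectin, had 1691 CPM in E2 and 2945 CPM in placebo, Tlr2 326 and 617 CPM, and Ptafr, the receptor of platelet-activating factor, 296 and 575 CPM. Of 20 chemoattractant and pattern receptors, 7 were higher and 13 lower, 1 and 6 past 1.5-fold, with a median of -0.19. In Retnlg-low neutrophils the median of this list was 0.02. For 20 cytokine and growth factor receptors the median was -0.33, against 0.01 in Retnlg-low neutrophils. Of these, 8 were higher and 12 lower, 4 and 7 past 1.5-fold. The lower genes past 1.5-fold include Csf3r and Il1r2, with log2 ratios of -0.68 and -0.78. The rule used both to choose the members, so their part in this list is a description only. Ifngr1, a chain of the interferon-gamma receptor, was on the higher side at 224 CPM in E2 and 106 CPM in placebo. Ifngr2 and Csf2rb2 were higher too, with log2 ratios of E2 over placebo of 2.01 and 1.43. Among migration genes, Ccr1 had 780.5 CPM in E2 and 1483 CPM in placebo, and the hyaluronan receptor gene Cd44 1201 and 2072 CPM. Olr1, a lipoprotein receptor used as a marker of suppressive neutrophils in humans, had 40.0 CPM in E2 and 149 CPM in placebo, with 70.0 and 281 CPM in Retnlg-low neutrophils. Its log2 ratio was -1.67, and -0.99 with the Retnlg bins of both libraries given the same weights.

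Genes of hypoxia and glycolysis were mostly higher in E2. Of 30 measured, 24 were higher and 6 lower, 17 and 1 past 1.5-fold, with a median of 0.65, against 0.22 in Retnlg-low neutrophils. Hif1a, the oxygen-regulated transcription factor, had 258 CPM in E2 and 78.1 CPM in placebo, a ratio of 3.30 (1.82 to 6.70). Hilpda, a lipid-droplet protein induced by hypoxia, had 219.9 CPM in E2 and 56.8 CPM in placebo, in 50 and 4 members, a ratio of 3.87 (1.93 to 9.08). Among glycolytic enzymes, Gapdh had 1514 CPM in E2 and 688 CPM in placebo, Aldoa 677 and 405 CPM, and Tpi1 137 and 28.4 CPM. Vegfa had 315 CPM in E2 and 199 CPM in placebo. Hk2, which encodes hexokinase 2, was the 1 gene past 1.5-fold on the lower side, at 58.1 CPM in E2 and 199 CPM in placebo, but its log2 ratio was 0.065 at the 0.5% threshold. The median of the list lay between 0.54 and 0.79 under the 9 alternatives run. In oxidative phosphorylation 32 of 37 genes were higher, and their median was 0.43, or 0.16 without the members above 10000 UMIs.

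Type I interferon response genes were more often higher than lower, 17 against 7 of 24, with a median of 0.45 and 11 against 3 past 1.5-fold. The median was -0.24 in Retnlg-low neutrophils. Ifitm3, a membrane protein that restricts virus entry, had 1476 CPM in E2 and 766 CPM in placebo. Irf7, the transcription factor that amplifies the response, had 123 CPM in E2 and 35.5 CPM in placebo, a ratio of 3.46 (1.44 to 10.8). Rtp4 had 237 CPM in E2 and 63.9 CPM in placebo. The list was not uniform, since Isg15, a ubiquitin-like protein of the same response, had 512 CPM in E2 and 709.7 CPM in placebo, and Rsad2, which encodes viperin, 111 and 199 CPM. Socs1, which brakes interferon signals, had 37.1 CPM in E2 and 142 CPM in placebo, 3.82-fold lower (2.11 to 6.72).

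**Figure D5:**
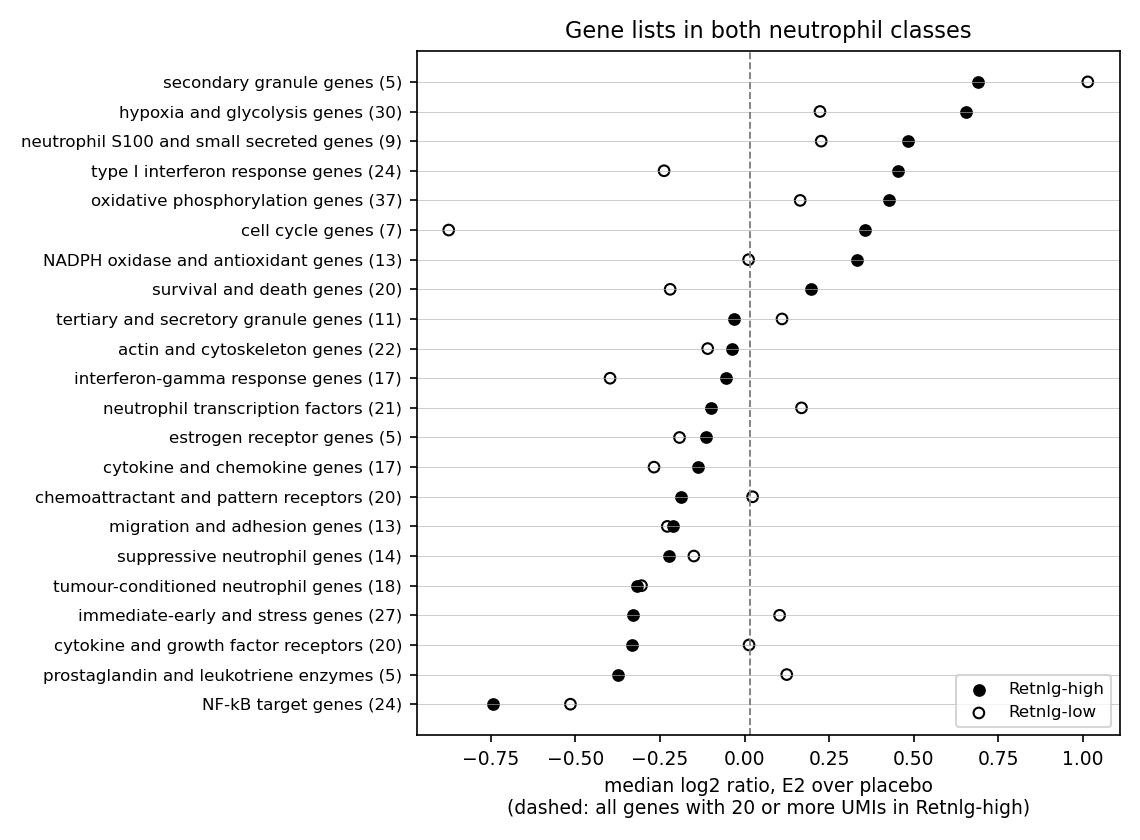
Median log2 ratio of E2 over placebo (CPM plus 10) for each gene list with at least 5 measured genes, in Retnlg-high and in Retnlg-low neutrophils. In Retnlg-high neutrophils the hypoxia and glycolysis list is at 0.65 and the NF-kB target list at -0.74, against 0.015 over all genes with at least 20 UMIs.

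Estrogen receptors were hardly seen in the members. Esr1, which encodes estrogen receptor alpha, had 1 UMI in E2 members and 0 in placebo members, and Esr2, Gper1, Pgr and Greb1 had 0 in both. A count of 0 allows up to 2.86 CPM in E2 members and 21.3 CPM in placebo members, so low levels were not detectable at this depth. Of the coregulators, Ncor1 had 266 CPM in E2 and 355 CPM in placebo. The glucocorticoid receptor gene Nr3c1 had 130.4 CPM in E2 and 142 CPM in placebo.

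Genes of MHC class II, which present antigen and are low in most neutrophils, were higher in E2 through few barcodes. H2-Aa had 194 CPM in E2 and 28.4 CPM in placebo, H2-Ab1 229 and 42.6 CPM, and H2-Eb1 214 and 14.2 CPM. One E2 barcode held 81.9, 71.4 and 78.7% of the E2 UMIs of these genes. With Cd74 they summed to 1253 CPM in E2 and 220 CPM in placebo, and to 287 CPM in E2 without the members above 10000 UMIs, where the log2 ratio of H2-Aa was -0.21.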

How the data were processed

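Single-cell RNA of CD45+ tumour-infiltrating cells was measured in 2 libraries, 1 per group. The authors deposited raw UMI counts per gene and barcode, made with Cell Ranger 3.1.0 on mm10, per the submitters' processing notes. The sources used here state neither their barcode filter nor their gene annotation. The rule for Retnlg-high neutrophils was applied to those deposited counts, and no clustering was used. UMIs were summed per class and library and divided by the summed total (CPM). Log2 ratios used CPM plus 10, and ratios carry exact conditional binomial 95% intervals, shares Clopper-Pearson intervals. With 1 library per group no p-value was computed. The calculation was tested on simulated counts that held counting error only. That test leaves out variation between barcodes, so it cannot check the intervals of uneven genes such as Ccl4.

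T-cell barcodes held at least 3 UMIs of Cd3d, Cd3e and Cd3g. Doublets were marked with Scrublet (scanpy 1.11.5) at 0.8% per 1000 barcodes, and kept. Coordinates come from GENCODE M21, which matched 47224 of 47730 features, and promoters from RefSeq (GRCm38.p6). Python 3.11.15, numpy 2.4.6, scipy 1.17.1 and pandas 2.3.3 were used.

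The members and gene lists were chosen with earlier results of these data known. Genes were named as the 12 highest and 12 lowest ratios whose interval lies off 1, the 12 with the largest agreeing ratio over Retnlg-low neutrophils each way, up to 5 per list, the 20 most abundant, and the markers and estrogen receptor genes. Ribosomal protein, mitochondrial, antigen receptor and unnamed gene models were left out. Other list members named were chosen after their values were seen. Alternatives varied the thresholds of the rule, the depth, the pseudocount, the filters, the totals and doublets.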

Additional observations from a re-analysis of the deposited data

Results flagged for a closer look

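For 2 genes the contrast between Retnlg-high and Retnlg-low neutrophils ran in opposite directions in the libraries, and the difference between the libraries was not tested. Irf7 had a log2 ratio of 1.25 in E2 and -1.21 in placebo. Its levels were 123 CPM in Retnlg-high and 46.6 CPM in Retnlg-low neutrophils of E2, and 35.5 and 96.1 CPM in placebo. Trafd1 had a log2 ratio of 0.86 in E2 and -2.52 in placebo, where members held 1 Trafd1 UMI.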

How the results depend on the processing

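The higher share of Retnlg-high neutrophils in E2 kept its direction under every alternative run, and moved most at a Retnlg threshold of 0.5%, to ratios of 5.28 (of barcodes) and 3.72 (of the gate). Thinned to 1000 UMIs, 178 genes were higher and 222 lower in E2. Of the 314 higher calls 102 were called again and 29 had the opposite sign, and of the 456 lower calls 137 and 42. With no filter on low values the counts were 1898 and 1594, and with 100 CPM and 100 UMIs required 170 and 200. Of Retnlg-high over Retnlg-low calls in both libraries, thinning left 34 higher and 123 lower, the stricter filter 45 and 180, and leaving out barcodes above 10000 UMIs 55 and 288. The mean of each barcode's CPM gave 334 lower. Thinning, stricter filters and left-out barcodes reduce the genes that can be tested.

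Over 155 named genes and 9 settings, 78 of 1395 E2 over placebo log2 ratios changed sign, in 40 genes, and 51 of the 78 were ratios under 1.5-fold. Beside the turns listed next, 128 values left their counting interval. Among ratios past 1.5-fold of genes with 50 CPM and 30 UMIs, 20 values in 15 genes changed sign. At the 0.5% threshold these were Atf3 (0.33), Denr (1.53), F3 (0.32), Hk2 (0.065), Hmox1 (0.24), Tnf (0.70) and Tnfsf14 (0.18). Thinned, they were Crip1 (-0.61), Frat2 (0.44), Ltb4r1 (-0.20), Ngp (-0.33), Ppia (-0.49), Tap2 (0.43) and Tnf (0.18). Ppia was -0.17 as the mean of each barcode, -0.51 without doublets and -0.31 without members above 10000 UMIs. H2-Aa was -0.998 without doublets and -0.21 without the deep members, and H2-Ab1 -0.13 without doublets. For Retnlg-high over Retnlg-low, Vim in placebo was 0.0027, 0.037 and 0.33 (barcode means, thinned, without deep barcodes). Psmb8 (0.088) and Uqcrb (0.16) in placebo turned when thinned, and Cybb (0.090) and H2-Eb1 (0.041) in E2 without deep barcodes. H2-Aa in placebo was 0.42 against barcodes with no Retnlg UMI. Against Retnlg-low neutrophils without barcodes rich in MHC class II or early granule genes, H2-Aa was 2.04 in E2 and 0.11 in placebo, H2-Ab1 1.76 and H2-Eb1 2.54 in E2. That setting took such barcodes from Retnlg-low neutrophils only, and the 2 E2 members rich in MHC class II genes stayed in. The cause of these turns was not tested.

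No paired analysis was possible because each group is 1 library, with no replicate to leave out. The alternatives without barcodes above 10000 UMIs or rich in those genes were chosen after seeing the data. The 140903 UMIs of the 49 placebo members limit every low gene.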

Other observations

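Genes of survival and death were split in Retnlg-high neutrophils. Of 20 measured, 13 were higher and 7 lower in E2, with a median log2 ratio of 0.20. The anti-apoptotic genes Bcl2a1b and Mcl1 had 257 and 3469 CPM in E2, and 539 and 4294 CPM in placebo. The death receptor gene Fas had 141 CPM in E2 and 71.0 CPM in placebo, and Bcl2l11, the death promoter Bim, 263 and 142 CPM. Bcl2a1b has near-identical copies, so its counts are uncertain. In lipid mediator synthesis, Ptgs2, the inducible cyclooxygenase, had 1308 CPM in E2 and 2228 CPM in placebo, while Alox5ap, which serves leukotriene synthesis, had 1653 and 979 CPM.

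Thbs1, which encodes the matrix protein thrombospondin 1, averaged 4.91 UMIs per 1000 in E2 members and 1.40 in placebo members. At that depth it was absent from 20.2% of E2 and 66.7% of placebo members. Of 13 NADPH oxidase and antioxidant genes, 10 were higher in E2 and 3 lower, with a median of 0.33. Prdx5, a peroxide-reducing enzyme, had 1773 CPM in E2 and 972 CPM in placebo. Actin and cytoskeleton genes, abundant in moving neutrophils, had a median of -0.04, with 10 of 22 higher. Each of these differences is between 2 libraries with no replicate check.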
